A study of Mus musculus with 3 samples.

Results

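Airway-like secretory thymic epithelial cells (TECs) are described here in cultured mouse thymus of 2 kinds, 520 cells of 9349 that could be assigned to a culture. They were chosen by measured values. A cell had at least 1 UMI (unique molecular identifier, the count of 1 captured RNA molecule) of Epcam, the surface protein that marks epithelium, and at least 1% of its gene UMIs came from Bpifa1, Wfdc2, Lcn2 and Gp2 together. It also had at most 2 UMIs of Psmb11, at most 1 of Aire and at most 1 of Cd3e, which mark cortical epithelium, a medullary epithelial state and T cells. Of 3012 cells with an Epcam UMI (called Epcam cells), 556 reached the 1% share, and the 3 limits removed 36 of them, mostly by Cd3e. The 36 removed cells stayed in the comparison group of 2492 other Epcam cells.

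The cultures were of 2 kinds. In a fetal thymic organ culture (FTOC), lobes dissected at E13.5 were kept whole. In an organoid reaggregate fetal thymic organ culture (ORFTOC), epithelial cells grown as organoids were reaggregated with EpCAM-depleted cells of E13.5 thymi and mouse embryonic fibroblasts. The organoids came from thymi of embryos older than E13.5, so the epithelium of the 2 kinds differed in starting age and time in culture. Both kinds were wild type, were floated on filters in the same medium with FGF7 and were dissociated on day 13, with no further treatment in the labels. By the paper's methods, this medium also held thiazovivin for the first 2 days. The organoids behind the ORFTOC epithelium had already been grown with FGF7, and with thiazovivin for their own first 2 days. Because 2 cultures were mixed into 1 pool per kind before antibody hashtags were added, and both pools ran together in 1 droplet lane, there was 1 sample per condition. No test was therefore possible between the pools, and no p-value is given. The secretory cells held 1098843 gene UMIs over 98 FTOC cells and 5012226 over 422 ORFTOC cells, with medians of 11263 and 11419 UMIs per cell.

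Secretory cells of mucosal surfaces, among them the club and goblet cells of the airway, release antimicrobial proteins, protease inhibitors and mucins that protect the epithelium. The thymic medulla also makes such cells. They belong to the mimetic TECs, which take on much of the expression of one peripheral tissue type and so display the proteins of that tissue to developing T cells.

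Secretory cells made up a larger share of the Epcam cells in ORFTOC than in FTOC. In FTOC 98 of 1182 Epcam cells were secretory, a share of 8.29% (95% Clopper-Pearson interval 6.78 to 10.01). The ORFTOC share was 23.1% (21.1 to 25.1), 422 of 1830. Such intervals, here and below, cover counting error only. The 2 shares did not overlap within counting error, but spread between cultures could not be measured. ORFTOC gave 81.2% of the secretory cells, against 56.5% of the other Epcam cells and 56.0% of all assigned cells. As shares of all assigned cells they were 2.38% in FTOC and 8.06% in ORFTOC. Cell recovery on dissociation can set these shares and was not tested.

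**Figure D1:**
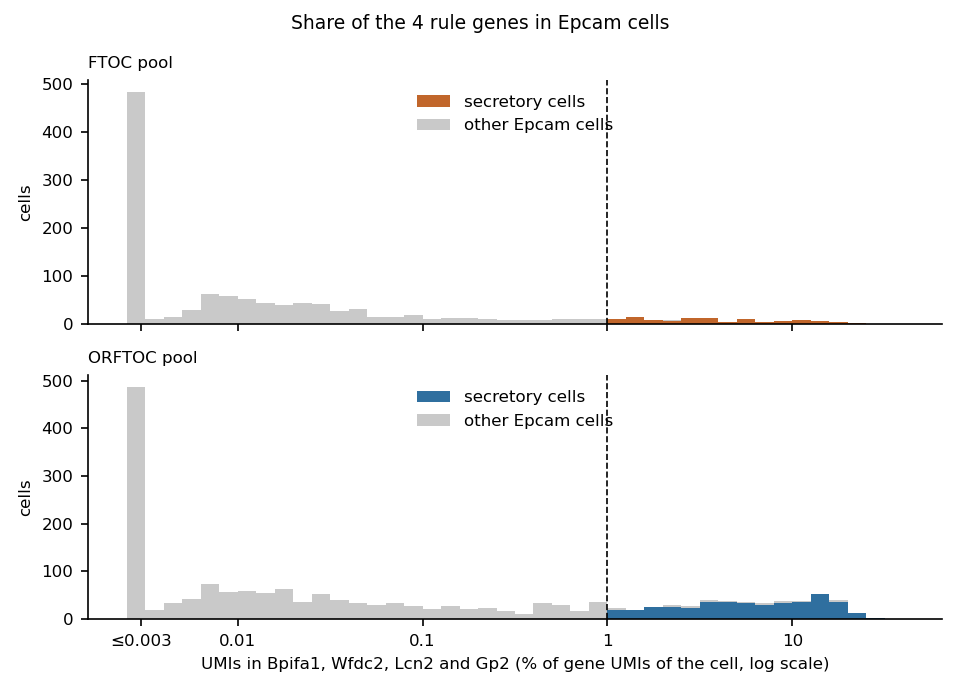
Number of Epcam cells (y axis) by the percentage of gene UMIs in Bpifa1, Wfdc2, Lcn2 and Gp2 (x axis, log scale; cells at or under 0.003% are drawn there), with the FTOC pool above and the ORFTOC pool below and a dashed line at 1%. Over both pools 2119 of the 3012 Epcam cells lie under 0.1%, and the secretory cells, which are to the right of the line, reach 24.2% in FTOC and 27.6% in ORFTOC.

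The plot of rule gene shares shows how the choice fell. The nearest cells inside the limit held 1.00% to 1.03% of their UMIs in the 4 genes, and the nearest outside held 0.991% to 0.972%. Counting cells that met the other limits, 95 lay between 1% and 2%, 99 between 0.5% and 1%, 186 between 0.1% and 0.5%, and 1481 below. The median share over the secretory cells was 3.18% in FTOC (range 1.02% to 24.2%) and 6.09% in ORFTOC (1.00% to 27.6%). At least 10% of all UMIs came from the 4 genes in 16 FTOC and 139 ORFTOC cells. These values were used by the rule and are a description.

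Free RNA and other cells in the droplets set the background. Among cells with at least 3 Cd3e UMIs, 1 of 1563 in FTOC and 2 of 1430 in ORFTOC reached 1% in the 4 genes. Bpifa1 had 29.0 and 32.8 CPM (UMIs per 1000000 gene UMIs, summed over cells) in those thymocytes, although it was detected in 15.5% and 18.3% of them at median depths of 5555 and 8549 UMIs. Its level in barcodes with fewer than 100 UMIs, taken as free RNA, was 2224 CPM. Productive T cell receptor beta contigs were found in 3.06% of FTOC and 2.37% of ORFTOC secretory cells, against 12.5% and 16.2% of the other Epcam cells. No doublet caller was run. At least 2 UMIs of Ptprc, the pan-leukocyte marker CD45, were counted in 1.02% and 4.50% of secretory cells and in 10.8% and 20.0% of the other Epcam cells. Both contrasts are shaped by the choice, which limited Cd3e in secretory cells only and left the removed cells among the others.

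A group of shallow cells stood apart within the choice. In total 49 secretory cells (4 FTOC, 45 ORFTOC) held fewer than 3000 UMIs, with a median of 1736. Ptprc was detected in 34.7% of them and in 8.28% of the 471 deeper cells. The lymphocyte genes Il2rg (36.7% against 6.58%) and Cd52 (49.0% against 10.2%) behaved likewise, while Krt8 or Krt18 was found in 98.0% and 100% of the cells. Whether the shallow cells were epithelial cells with RNA of other cells or the reverse was not tested. With the shallow cells no longer counted as secretory, the ORFTOC share was 20.6% of the Epcam cells rather than 23.1%. The total was still all 1830 ORFTOC Epcam cells, with these 45 and 102 other Epcam cells under 3000 UMIs kept in it. So 20.6% is not the share among deeper cells, of which 377 were secretory and 1306 were other Epcam cells.

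The label has 5 markers. The rule used 4 of them, so their levels were fixed by the choice and are given as a description, and they were spread unevenly over the cells. Bpifa1, a secreted airway protein with antimicrobial and surface-active properties, had 34514 CPM in FTOC and 67119 in ORFTOC, and was found in 92.9% and 96.7% of the secretory cells. In the other Epcam cells it had 103 and 1572 CPM. Wfdc2, of the whey acidic protein family of protease inhibitors, had 11229 and 3642 CPM against 230 and 223. It was found in 99.0% and 94.1% of the cells.

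Lcn2, which withholds iron from bacteria by binding their siderophores, had 4997 CPM in FTOC and 9101 in ORFTOC against 116 and 404, and was found in 94.9% and 96.2% of the cells. Gp2, a receptor for bacteria known from microfold cells, had 3367 and 3124 CPM against 67.8 and 118. It was found in 46.9% and 46.4% of the cells, so its median over single cells was 0 in both pools. Reg3g, a bactericidal lectin that the rule did not use, had 6259 CPM in FTOC and 1736 in ORFTOC, against 191 and 109. It was found in only 29.6% and 26.5% of the cells, and its 5 highest cells held 68.5% and 69.9% of its UMIs. The only marker outside the rule was thus found in a minority of the cells.

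The 250 bases before the start of each of these 5 genes are printed because the genes define the cells. They come from the RefSeq annotation of GRCm38.p6, the build called mm10, and run 5′ to 3′ on the strand of the gene. Bpifa1 lies at chr2:154142630-154142879 (plus strand), Wfdc2 at chr2:164562465-164562714 (plus), Lcn2 at chr2:32387740-32387989 (minus), Gp2 at chr7:119459273-119459522 (minus) and Reg3g at chr6:78468875-78469124 (minus). Capitals mark matches to the motifs named in the next paragraph.
Bpifa1: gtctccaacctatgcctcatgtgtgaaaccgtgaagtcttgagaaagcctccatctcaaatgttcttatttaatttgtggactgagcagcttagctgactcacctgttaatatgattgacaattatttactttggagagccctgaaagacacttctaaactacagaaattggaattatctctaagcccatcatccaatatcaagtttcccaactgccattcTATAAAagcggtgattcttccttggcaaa
Wfdc2: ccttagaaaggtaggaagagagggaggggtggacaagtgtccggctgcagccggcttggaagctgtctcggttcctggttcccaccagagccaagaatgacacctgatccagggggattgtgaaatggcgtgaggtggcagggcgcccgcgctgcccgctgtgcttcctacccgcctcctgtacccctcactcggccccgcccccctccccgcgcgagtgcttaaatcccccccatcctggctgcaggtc
Lcn2: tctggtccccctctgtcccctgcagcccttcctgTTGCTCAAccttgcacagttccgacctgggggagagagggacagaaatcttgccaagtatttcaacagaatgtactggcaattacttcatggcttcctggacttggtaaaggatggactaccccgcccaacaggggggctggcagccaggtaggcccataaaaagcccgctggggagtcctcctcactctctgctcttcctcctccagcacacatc
Gp2: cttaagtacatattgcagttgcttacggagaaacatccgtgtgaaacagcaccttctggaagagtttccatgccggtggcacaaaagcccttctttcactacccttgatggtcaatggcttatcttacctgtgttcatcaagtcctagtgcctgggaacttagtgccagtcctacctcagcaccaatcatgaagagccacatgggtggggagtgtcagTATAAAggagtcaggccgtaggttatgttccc
Reg3g: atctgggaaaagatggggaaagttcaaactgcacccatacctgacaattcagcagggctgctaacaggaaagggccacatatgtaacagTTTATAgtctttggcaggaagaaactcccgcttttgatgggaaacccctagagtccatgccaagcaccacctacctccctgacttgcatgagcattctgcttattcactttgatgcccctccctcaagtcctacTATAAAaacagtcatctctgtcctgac

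Motifs chosen with results known were searched on both strands, and no factor binding was measured. The TATA box letters TATAAA were found in 3 of the 5 windows, in Bpifa1 (29 to 24 bases before the start), Gp2 (32 to 27) and Reg3g (27 to 22, and again at 161 to 156). They occurred in 13.0% of 27025 windows of the same length. The C/EBP letters TTNNGCAA were found in Lcn2 only (9.55% of all windows). The forkhead letters TGTTTAC (3.09%), the ETS letters AGGAAGT (7.80%), the NF-kB motif (0.337%) and the Grainyhead letters AACNNGTT (3.63%) had no match in the 5 windows, which says only that these letters are not there.

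Beyond the rule genes, the secretory cells were compared with the other Epcam cells of the same pool by the ratio of CPM. A gene was compared where at least 10 UMIs would be expected in the secretory cells of each pool under equal levels, and it was called where the ratio reached 2-fold in both pools. Of 9556 compared genes 458 (4.79%) were called higher and 924 (9.67%) lower, rule genes included. The median log2 ratio over all compared genes was -0.15 in FTOC and -0.13 in ORFTOC. As each pool is 1 sample and a rare gene can pass the filter through the cells in which it is high, these counts are descriptions.

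**Figure D2:**
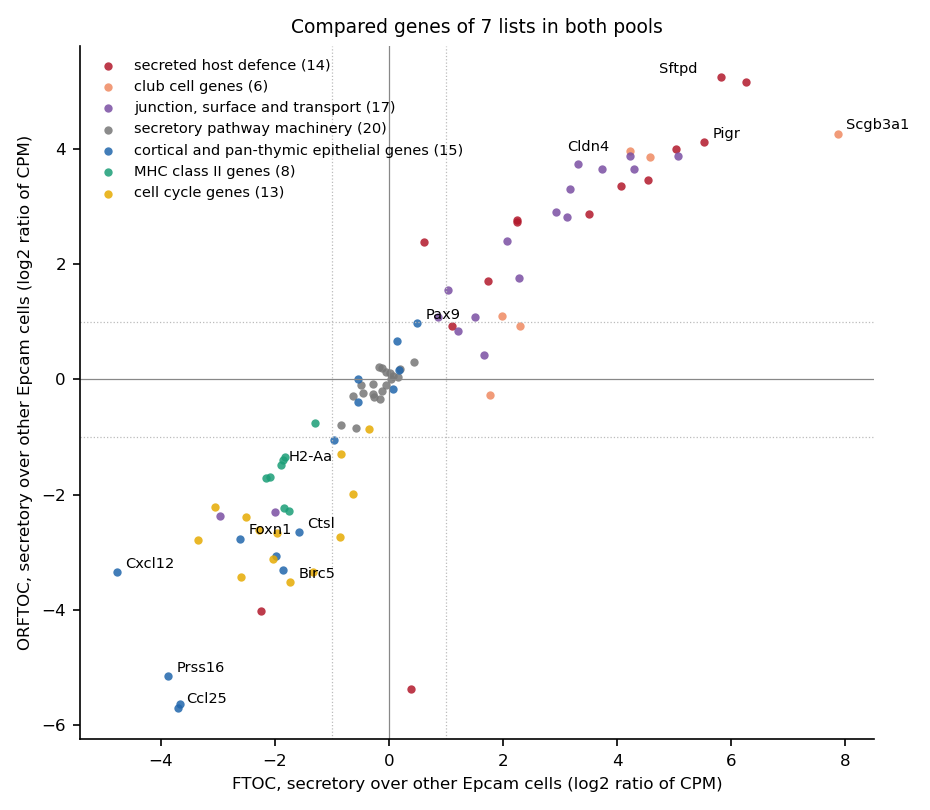
Log2 ratio of CPM, secretory over other Epcam cells, in FTOC (x axis) and ORFTOC (y axis) for every compared gene of 7 lists, 1 point a gene, with dotted lines at 2-fold. Host defence, club cell and junction genes lie mostly at the upper right, secretory machinery around 0, and cortical, MHC class II and cell cycle genes mostly at the lower left.

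Most of the secreted host defence genes compared were higher. Of 23 genes on the list, 14 were compared, 10 were called higher and 1 lower, with median log2 ratios of 2.88 in FTOC and 2.82 in ORFTOC. Sftpd, the surfactant collectin that coats microbes in the airway, had 425 CPM in FTOC and 307 in ORFTOC, against 7.52 and 8.05 in other Epcam cells. That was 56.5-fold and 38.1-fold higher. Slpi, the secretory leukocyte protease inhibitor, had 443 and 389 CPM against 5.77 and 10.8. Pigr, which carries IgA and IgM across mucosal epithelium, had 1408 and 1048 CPM against 30.7 and 60.4, and it was detected in 84.7% and 82.7% of the cells. So Pigr was found in more of the cells than Gp2 and in fewer than the other 3 rule genes.

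The complement component C3 had 702 CPM in FTOC and 1556 in ORFTOC (61.7 and 213 in other Epcam cells). The copper carrier ceruloplasmin, Cp, had 170 and 147 CPM (7.30 and 13.3), and the chaperone clusterin, Clu, had 2008 and 2787 (425 and 421). Chil1, Saa3 and Wfdc18 were also called higher. The lysozyme Lyz1 was the gene called lower, at 0 and 0.798 CPM against 12.9 and 13.0. Lyz2, S100a8 and Saa1 did not reach 2-fold in both pools. The other 9 genes fell under the filter, among them lactoferrin, Ltf, with 30.03 and 165 CPM against 2.56 and 1.14.

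Other genes had large ratios as well. Hp, which binds free haemoglobin, had 552 CPM in FTOC and 694 in ORFTOC against 14.5 and 24.1, and Serpinb11, of the serpin family, had 987 and 684 against 21.3 and 31.7. Spink5, an inhibitor of serine proteases, had 241 and 120 CPM against 11.2 and 5.42. Cxcl17, a chemokine of mucosal tissues, had 254 and 239 CPM against 7.81 and 18.2. The smallest of these ratios was 13.2-fold, for Cxcl17 in ORFTOC. Depp1 (576 and 286 CPM), Fam174b (117 and 104) and Lrrc26 (213 and 129), the last a potassium channel subunit of secretory epithelium, completed the 15 with the largest lesser ratio, together with the junction and club cell genes below.

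Club cell genes were only partly higher. Of 10 on the list, 6 were compared and 4 were called higher, with median log2 ratios of 3.26 and 2.48. Cyp2f2, the cytochrome P450 typical of mouse club cells, had 909 CPM in FTOC and 669 in ORFTOC against 38.0 and 46.2, and was found in 79.6% and 75.6% of the cells. The secretoglobin Scgb3a1 had 747 and 83.4 CPM against 3.21 and 4.32. Gsta3 and Selenbp1 were the others called higher, while Cyp2a5 and Cbr2 did not reach 2-fold in both pools. Cbr2 was widely found all the same. In the secretory cells with fewer than 10 Foxi1 UMIs it had 2782 CPM in FTOC and 1426 in ORFTOC, in 99.0% and 91.5% of those cells. Scgb1a1, the secretoglobin that defines club cells of the lung, had 0 UMIs in the 98 FTOC and 422 ORFTOC cells, which allows shares of cells with a UMI of up to 3.06% and 0.711% (the limit of 3 counts of the total). Nkx2-1, the lung and thyroid transcription factor, had 0 and 0.200 CPM. Both of these lung genes were thus at or near 0.

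Mucin and goblet cell genes were high in few cells. Of 16 genes, 6 were compared and 4 were called higher, namely Muc1, Muc4, Muc5b and Agr2. Muc5b, a gel-forming mucin of the airway, had 705 CPM in FTOC and 89.6 in ORFTOC against 0.876 and 0.497, but was found in 14.3% and 9.72% of the cells. Agr2, a disulphide isomerase needed for mucin production, had 552 and 45.9 CPM and was found in 24.5% and 7.11%. In the FTOC comparison group Agr2 was at 0.0730 CPM, a level of single UMIs, so its ratio there has little meaning. Spdef, the goblet cell transcription factor, fell under the filter with 48.2 and 38.3 CPM against 0.292 and 3.68.

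Some transcription factors of airway and mucosal epithelium were higher. Of 24, 18 were compared, 8 were called higher and 1 lower, with median log2 ratios of 0.88 and 1.10. Foxa1, a forkhead pioneer factor of endodermal epithelium, had 92.8 CPM in FTOC and 79.4 in ORFTOC against 6.94 and 17.7. The epithelial ETS factor Ehf had 293 and 328 CPM against 39.2 and 65.5, and its relative Elf3 had 331 and 194 against 91.8 and 68.8. Klf5 had 185 and 165 CPM against 25.6 and 29.9. These 4 were detected in 46.9% to 83.7% of the cells. Elf5, Grhl1, Hes1 and Creb3l1 were also called higher. Trp63, the p63 gene of basal and stem-like epithelium, was the gene called lower, with 36.4 and 17.4 CPM against 192 and 143.

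Most junction, surface and transport genes compared were higher. Of 20, 17 were compared, 12 were called higher and 2 lower, with median log2 ratios of 2.28 and 2.40. The tight junction claudins led, with Cldn4 at 740 CPM in FTOC and 864 in ORFTOC against 39.8 and 58.4, Cldn10 at 130 and 103 against 3.87 and 7.06, and Cldn3 at 562 and 272 against 42.5 and 21.6. Slc12a2, a chloride importer of fluid-secreting epithelium, had 472 and 510 CPM against 52.4 and 51.2. The water channel Aqp3 was called lower (103 and 35.3 against 411 and 173), as was Ptgs2, while the water channel Aqp5 was higher (427 and 235 against 151 and 111).

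The general machinery of protein secretion did not differ in this way. All 20 genes for translocation into the endoplasmic reticulum, folding and export were compared and 0 were called in either direction, with median log2 ratios of -0.14 and -0.10. These medians were near those of all compared genes. Among keratins, Krt7, Krt19 and Krt23 were called higher and the basal keratins Krt14 and Krt17 lower. Krt8 (1925 and 2211 CPM against 1448 and 2210) and Krt18 did not reach 2-fold.

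Genes of thymic identity split. Pax1 and Pax9, transcription factors of the early thymic primordium, were called neither higher nor lower. Pax1 had 222 CPM in FTOC and 236 in ORFTOC against 211 and 265, and Pax9 had 226 and 260 against 160 and 133. Each was detected in 75.4% to 80.8% of the secretory cells. By contrast Foxn1, the master regulator of TEC function, had 10.01 and 10.8 CPM against 61.3 and 73.2. Of the 17 cortical and pan-thymic genes, 15 were compared, 0 were called higher and 8 lower.

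Among the lower genes were Prss16, the thymus-specific serine protease (17.3 and 21.9 CPM against 253 and 777), Tbata (16.4 and 46.9 against 206 and 2330), the chemokine Ccl25 that draws thymocyte progenitors (12.7 and 14.0 against 165 and 725), and Cxcl12 (13.7 and 18.0 against 374 and 182). Castor1, Crip3 and Pltp, also among the 10 with the lowest ratios, had 10.01 to 53.7 CPM in secretory cells and 133 to 838 in the others. The chemokine Cxcl14 had 7.28 and 7.98 CPM against 217 and 200. The others of the 10 leading lower genes mark other cells in the comparison group. Pth, parathyroid hormone, had 0.910 and 0.998 CPM against 1868 and 288, and Chga of neuroendocrine cells had 0 and 0.798 against 1320 and 178.

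Some medullary genes and most MHC class II genes were lower too. Of 11 medullary genes 0 were called higher and 4 lower, namely Ccl21a, Ccl19, Fezf2 and Cd52, the last of which also marks lymphocytes. Ccl19, a chemokine that draws maturing T cells, had 22.8 CPM in FTOC and 82.2 in ORFTOC against 424 and 1217. Of 9 MHC class II genes, 8 were compared and 7 were called lower, with median log2 ratios of -1.86 and -1.58. H2-Aa had 827 and 1061 CPM against 3084 and 2966, and its transactivator Ciita had 15.5 and 15.96 against 55.7 and 74.8. H2-Aa was still detected in 79.6% and 92.7% of the secretory cells. In thymocytes it had 8.96 and 21.4 CPM. MHC class I genes did not follow, with 0 of 10 called higher, 1 (Psmb10) lower, and medians of 0.33 and 0.29.

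Most cell cycle genes were lower than in the other Epcam cells as a whole. Of 13, all were compared, 0 were called higher and 9 lower, with median log2 ratios of -1.96 and -2.66. Mki67, the proliferation marker Ki67, had 15.5 CPM in FTOC and 12.2 in ORFTOC against 74.8 and 74.7, and Top2a had 26.4 and 12.2 against 108 and 105. Mki67 was detected in 6.12% and 5.45% of the secretory cells. Sets of the other Epcam cells, split as described below, were unlike in this. Mki67 had 18.7 and 14.7 CPM in the cortical set and 0 and 34.7 in the medullary set, but 135 and 184 in the Aire set and 73.3 and 83.8 in the remaining cells, so the low level was shared with the cortical set. The comparison group held more cells with leukocyte RNA, as the Ptprc shares above show, and its part in these differences was not tested. Of 12 thymocyte markers 10 were compared and 9 were called lower, which the Cd3e limit of the choice favours.

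Markers of other mimetic cells were uneven. Of 9 ciliated cell genes and 7 gut and liver genes, 0 passed the filter. Tuft cell genes were at or near 0, with Trpm5 and Pou2f3 at 0 UMIs in both pools, except for Dclk1, which had 171 and 208 CPM against 15.1 and 22.6 and was found in 60.2% and 65.2% of the cells. Of the 11 microfold cell genes, 8 were compared, with median log2 ratios of -0.61 in FTOC and 0.32 in ORFTOC. Only Tnfaip2 and Pglyrp1 were called higher. Tnfaip2 had 216 and 204 CPM against 45.3 and 55.6 and was found in 68.4% and 70.6% of the cells. Pglyrp1, a peptidoglycan recognition protein, had 715 and 171 CPM against 69.2 and 59.5 and was found in 69.4% and 39.8%. Spib, the ETS factor of microfold cells, was called lower (7.28 and 14.6 CPM against 34.1 and 39.7). Keratinocyte genes called higher were Sbsn and Spink5, of 5 compared. Of 17 NF-kB, IL-17 and chemokine genes compared, 4 were called higher (Cxcl1, Cxcl5, Cxcl17 and the receptor Il17rc) and 1, Ccl2, lower. Of the 11 immediate-early and heat shock genes, Jun and Fosb were called higher.

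Ionocyte genes were all higher where compared, 4 of 4. Foxi1, the transcription factor of ionocytes, had 44.6 CPM in FTOC and 43.1 in ORFTOC against 17.4 and 13.7, and was found in 3.06% and 5.21% of the cells. The chloride channel gene Cftr was much wider spread, with 71.0 and 93.6 CPM against 8.98 and 8.75 and a UMI in 38.8% and 50.5% of the cells.

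**Figure D3:**
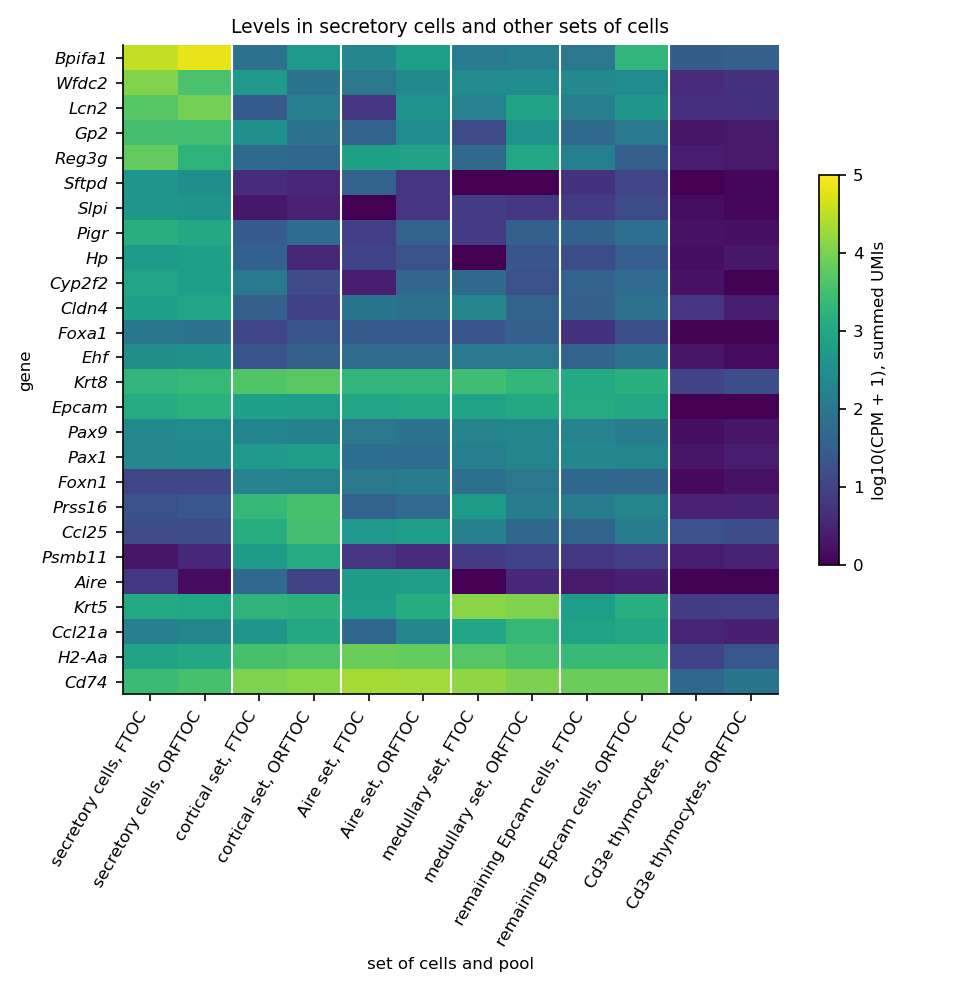
Level, as log10 of CPM plus 1 from summed UMIs (colour), of 26 genes (rows) in the secretory cells, in other Epcam cells split into a cortical, an Aire, a medullary and a remaining set, and in thymocytes, each in FTOC and ORFTOC (columns). Rows from Sftpd to Ehf are brightest in the secretory cells of both pools, Epcam, Pax9 and Pax1 show in every epithelial column, and H2-Aa and Cd74 are lower in the secretory cells than in the other epithelial columns.

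The other Epcam cells were split to see whether a single set set the contrast, as the map of levels by set shows. The cortical set had at least 3 Psmb11 UMIs (48 FTOC and 205 ORFTOC cells), the Aire set at least 2 Aire UMIs (65 and 57), and the medullary set at least 1% of UMIs in Ccl21a and Krt5 (10 and 59), which left 961 and 1087 remaining cells. Pigr ranged over these sets from 6.68 to 64.6 CPM and Slpi from 0 to 13.7, both under every secretory value. Foxn1 was 43.6 to 175 CPM over the 8 values, above 10.01 and 10.8 in secretory cells. H2-Aa was 2392 to 7644 CPM, so every set was above the secretory cells. Clu was not lower in every set, as the 10 FTOC medullary cells had 2530 CPM against 2008 in FTOC secretory cells, and the ORFTOC medullary set had 1136. Reg3g was 732 and 757 CPM in the Aire set and 975 in the ORFTOC medullary set, nearer to the 1736 CPM of ORFTOC secretory cells than in the other sets.

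The secretory cells differed among themselves in which rule gene led. Bpifa1 held the most UMIs of the 4 genes in 63 of 98 FTOC cells (64.3%) and 343 of 422 ORFTOC cells (81.3%, interval 77.2 to 84.9). Wfdc2 led in 20 (20.4%) and 15 (3.55%), Lcn2 in 8 and 44, and Gp2 in 7 and 20. Because the subsets were cut by these genes, only other genes are given for them. Reg3g had 9578 CPM in FTOC and 20040 in ORFTOC in the cells led by Wfdc2, against 5932 and 664 in those led by Bpifa1. Agr2 had 1997 and 719 CPM in the Wfdc2-led cells and 136 and 14.2 in the Bpifa1-led cells. Foxi2, a forkhead gene on the ionocyte list, had 407 and 408 CPM in the Gp2-led cells and 0 and 13.9 in the Bpifa1-led cells. In the Lcn2-led cells Clu was higher (5997 and 4098 CPM against 1928 and 2707). The 7 to 20 cells behind several of these values make them a description of those cells.

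**Figure D4:**
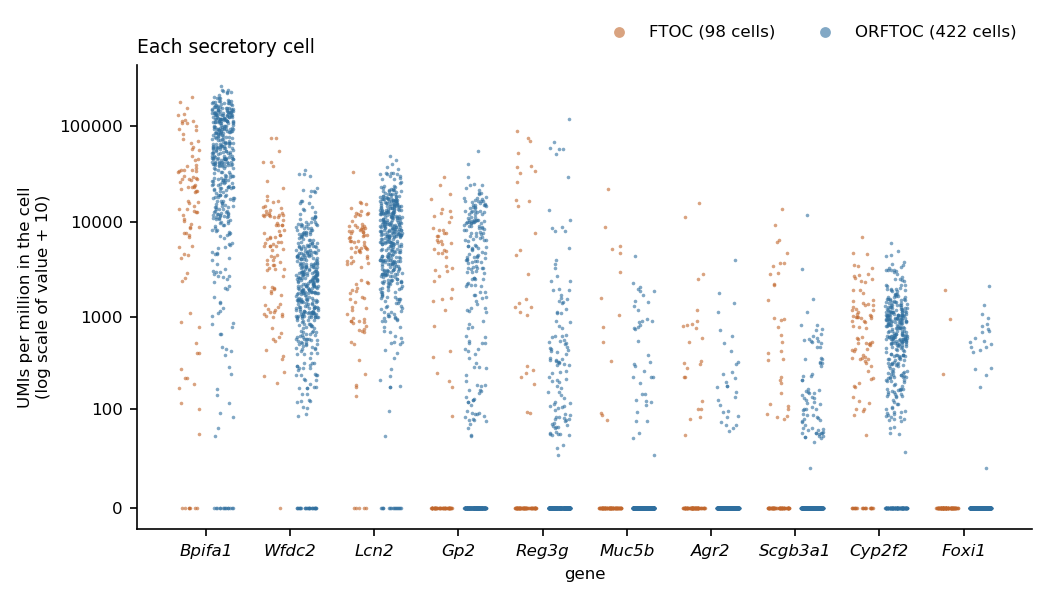
UMIs per 1000000 gene UMIs in each secretory cell (y axis, log scale of the value plus 10, cells without a UMI at 0) for 10 genes (x axis), 98 FTOC cells in orange and 422 ORFTOC cells in blue. Bpifa1, Wfdc2, Lcn2 and Cyp2f2 are found in most cells, while Gp2 is at 0 in about as many cells as not and Reg3g, Muc5b, Agr2 and Foxi1 are at 0 in most.

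Cells with at least 10 UMIs of one of 5 patchy genes were then set beside the rest of the secretory cells, as the plot of single cells prompts. Gp2 reached 10 UMIs in 38 FTOC and 150 ORFTOC cells, Reg3g in 22 and 39, Muc5b in 8 and 17, Agr2 in 10 and 6, and Foxi1 in 2 and 8. These cells were deeper than the rest (a median of 15970 against 10792 UMIs for Reg3g in ORFTOC). Over both pools 18 of 25 Muc5b cells were also Reg3g cells (29.5% of the 61 Reg3g cells), and 10 of the 16 Agr2 cells were Muc5b cells. Of the 10 Foxi1 cells, 9 were Gp2 cells (4.79% of the 188 Gp2 cells), and 0 were Reg3g or Muc5b cells. Among all secretory cells of FTOC and ORFTOC, Gp2 cells were 38.8% and 35.5%, Reg3g cells 22.4% and 9.24%, and Muc5b cells 8.16% and 4.03%. For 10 cells, mostly of ORFTOC, 0 is near the Reg3g and Muc5b shares, so it does not show that these cells exclude each other.

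The Reg3g cells held more of several goblet cell genes. Muc5b had 2656 CPM in FTOC and 411 in ORFTOC in these cells, against 8.65 and 43.2 in the rest. Spdef had 131 and 96.4 CPM against 18.5 and 29.9. Spink5, which is on the keratinocyte list, was also higher in the Reg3g cells (878 and 468 CPM against 13.6 and 69.2). Foxi1 was at 0 in the Reg3g cells of both pools, but it was found in only 3.95% and 5.74% of the rest. With so few Reg3g cells, 0 is near that share.

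The 10 Foxi1 cells held more of other ionocyte genes. Ascl3, a transcription factor of ionocytes, had 1254 CPM in FTOC and 457 in ORFTOC in these cells against 2.81 and 17.7, and Foxi2 had 1383 and 419 against 0 and 21.8. Slc12a2 had 2348 and 1996 CPM against 418 and 462, and Cftr had 225 and 277 against 66.5 and 87.7. Bpifa1 had 193 and 24009 CPM against 35513 and 68497, and Gp2 had 6754 and 8784 against 3269 and 2943. Both are rule genes, and a chosen cell with little of one must reach 1% through the others, so these values and the overlap with the Gp2 cells are shaped by the choice. With 2 and 8 cells they are 0.248% to 7.18% and 0.822% to 3.70% of the secretory cells within counting error. Among genes picked after their values were seen, Umod had 175 and 474 CPM in the Gp2 cells against 3.04 and 42.2 in the rest.

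Rank correlations over single cells with at least 3000 UMIs (94 FTOC and 377 ORFTOC cells) were also computed. Reg3g and Muc5b had a Spearman rho of 0.62 in FTOC and 0.31 in ORFTOC, Muc5b and Agr2 0.41 and 0.39, and Wfdc2 and Agr2 0.43 and 0.29. Clu and Krt8 had 0.43 and 0.41. Wfdc2 is a rule gene, so its value is shaped by the choice. These 4 pairs come from 120 computed, and cells of a pool share the lane and differ in depth.

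Between the pools, the secretory cells were alike for most genes. Of 9165 genes with at least 10 expected UMIs in both pools, 348 (3.80%) were at least 2-fold higher in ORFTOC and 161 (1.76%) at least 2-fold lower, with a median log2 ratio of 0.03. The pools also differed in Y-linked RNA and in RNA of other cell types. A Y-linked UMI was found in 0 of 98 FTOC secretory cells, which allows up to 3.06% by the same limit (3.69% by Clopper-Pearson), and in 42.9% of those of ORFTOC, and Xist had 458 and 180 CPM. Macrophage markers summed to 26.4 CPM in FTOC and 196 in ORFTOC over the secretory cells (5 of 5 compared markers higher in ORFTOC, 1 of the 8 at 0 in FTOC). Mesenchymal markers summed to 11.8 and 262 CPM (5 of 5 higher, 5 of 8 at 0 in FTOC). In ORFTOC 90.9% of C1qa and 95.6% of Col1a1 UMIs lay in 5 cells each. The part of these cells and RNAs in the differences between pools was not tested. Culture kind, starting age and time in culture of the epithelium, sex and pool cannot be told apart.

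Several host defence genes were higher in ORFTOC. Of 16 compared, 7 were higher, against 2 lower, Reg3g and Wfdc15b. Besides C3 (2.22-fold, interval 2.06 to 2.39), they included Ltf, with 30.03 CPM in FTOC and 165 in ORFTOC (5.49-fold, 3.88 to 8.04), and Saa3, with 91.0 and 386. Leaving aside the few Foxi1 cells, Saa3 was found in similar shares of secretory cells, 18.8% in FTOC and 18.4% in ORFTOC. Lyz2, the macrophage lysozyme, had 65.5 and 507 CPM, of which 5 cells held 70.0% in ORFTOC. In the other Epcam cells C3 (61.7 and 213 CPM) and Lyz2 (30.5 and 266) were also higher in ORFTOC, whereas Ltf (2.56 and 1.14) was not. Cxcl5, a neutrophil chemokine, had 100 and 437 CPM. Sftpd, Slpi, Pigr, Cp, Chil1, Clu and Wfdc18 stayed within 2-fold.

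Among the genes with the largest ORFTOC ratio, Ccl11, the eotaxin chemokine, had 1 UMI in FTOC (0.910 CPM) and 289 CPM in ORFTOC, in 69 of 422 cells. Its level was 199 CPM in the other Epcam cells of ORFTOC and 48.0 in free RNA. Timp1, an inhibitor of metalloproteinases, had 62.8 and 448 CPM and was in 32.7% and 61.8% of the cells. Id3, a target of BMP and TGF-beta signals, had 43.7 and 233 CPM, and Id1 had 70.1 and 326. Id1 was in 21.4% of FTOC and 62.6% of ORFTOC cells, and its 5 highest ORFTOC cells held 10.1% of the UMIs, so this difference was spread over the cells. Lbh (20.9 and 107 CPM) was spread as well, whereas Lgals3 (25.5 and 156) had 76.8% of its ORFTOC UMIs in 5 cells and S100a6 (34.6 and 179) had 41.6%. Without the 5 highest ORFTOC cells of each gene the log2 ratios were 5.64 for Ccl11, 2.36 for Timp1, 2.18 for Id3, 2.23 for Lbh, 1.71 for Ltf, 1.62 for S100a6, 1.25 for Lyz2 and 0.56 for Lgals3, so Lgals3 alone of these 8 came within 2-fold.

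Several mucin and goblet genes were lower in ORFTOC. Of 11 compared, 6 were lower (Muc1, Muc4, Muc13, Muc5b, Agr2 and Tff1) and 1, the gel-forming Muc5ac, was higher (14.6 CPM in FTOC and 61.8 in ORFTOC). Muc5b was 7.87-fold and Agr2 12.04-fold higher in FTOC than in ORFTOC. In FTOC 5 cells held 90.1% and 85.01% of their UMIs, so both ratios rest on few cells. By share of cells, thinned to 3000 UMIs each (4 FTOC and 45 ORFTOC cells left out), Agr2 was in 20.2% of FTOC and 3.98% of ORFTOC cells and Muc5b in 11.7% and 7.96%. Before thinning the shares were 24.5% and 7.11%, and 14.3% and 9.72%. Scgb3a1 was 8.96-fold higher in FTOC, with 25.5% and 9.55% of thinned cells (34.7% and 18.7% before).

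**Figure D5:**
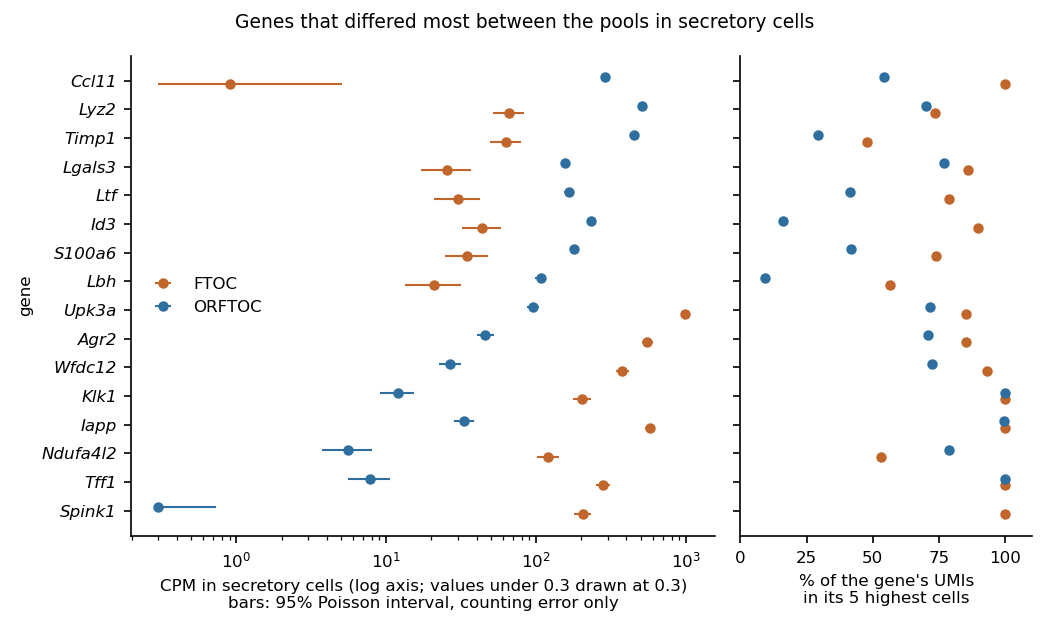
Left, CPM in the secretory cells of FTOC (orange) and ORFTOC (blue) on a log axis (values under 0.3 drawn at 0.3) with 95% Poisson intervals, for 16 genes, 8 at each end of the ORFTOC to FTOC ratio; right, the percentage of the UMIs of each gene in its 5 highest cells. Timp1, Id3 and Lbh have under 30% of their ORFTOC UMIs in 5 cells, while Spink1, Tff1, Klk1 and Iapp have nearly all of their UMIs there in every pool that has any.

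The genes with the largest FTOC ratio were mostly genes of few cells, as the plot of pool differences shows. Spink1, a trypsin inhibitor, had 224 UMIs in 1 FTOC cell and 0 in ORFTOC. Tff1, a mucosal trefoil peptide, was in 4 FTOC and 2 ORFTOC cells, the kallikrein Klk1 in 2 and 2, and the islet hormone Iapp in 6 and 6. Wfdc12 (375 and 26.7 CPM, 14 and 24 cells) and the uroplakin Upk3a (976 and 95.8 CPM, 21 and 36 cells) were in more. Ndufa4l2, a mitochondrial protein induced by low oxygen, had 120 CPM in FTOC and 5.59 in ORFTOC, and was in 19.4% and 2.61% of the cells. The 5 highest FTOC cells of each gene were then left out, but no ORFTOC cell. This turned the direction for Tff1, Klk1 and Iapp (log2 ORFTOC over FTOC of 1.41, 2.05 and 3.51). For these genes the step left few or no FTOC UMIs. Their turn was thus set by the step, and its size by the floor of 3 UMIs. The same step brought Wfdc12 to -0.08, Upk3a to -0.69 and Agr2 to -0.96, all within 2-fold, and left Ndufa4l2 at -3.44. So of these 7 genes Ndufa4l2 alone stayed past 2-fold in the first direction. Spink1 had no UMI left in either pool after this step, so it has no ratio.

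Most low oxygen and glycolysis genes compared were lower in ORFTOC. Of 11 compared, 7 were lower and 0 higher, with a median log2 ratio of -1.08. Pgk1, a glycolytic kinase, had 390 CPM in FTOC and 139 in ORFTOC, 2.80-fold apart, and was in 80.6% and 62.6% of the cells. Ldha, lactate dehydrogenase, had 700 and 342 CPM. Bnip3 had 130 and 50.3 CPM and Egln3, an oxygen sensor, 61.9 and 24.9. In the other Epcam cells Pgk1 had 464 and 294 CPM and Ldha 712 and 593, which is the same order at a smaller ratio.

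Several other groups differed little between the pools. Of 20 secretory machinery genes, 10 MHC class I genes, 8 MHC class II genes and 11 immediate-early and heat shock genes, 0 were called in either direction. Of 19 transcription factors compared, Id1 and Id3 were higher and Trp63 lower in ORFTOC (36.4 and 17.4 CPM), with Foxa1, Ehf, Elf3 and Klf5 within 2-fold. Cell cycle genes differed more. Of 9 compared, 4 were lower in ORFTOC and 0 higher, against 1.76% of all compared genes lower, with a median log2 ratio of -0.55.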

How the data were processed

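Single-cell RNA-seq was made from 2 hashtagged pools in 1 lane with a 5′ droplet kit. The deposited gene, hashtag and T cell receptor tables hold raw counts (UMIs), made by the authors on mm10. Cell Ranger 6.1.2 and Seurat 4.2.0 are named in the submitters' processing notes, whereas the header of the gene matrix names Cell Ranger 4. The matrix of 705161 barcodes was used unfiltered. Cells had at least 600 genes, 0.4% to 10% mitochondrial UMIs, and at least 80% of at least 10 hashtag UMIs in one hashtag, which gave 9349 cells (FTOC 4112, ORFTOC 5237) with 0 barcodes shared.

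UMIs were summed per pool and set and given as CPM. Ratios used a floor of 3 UMIs, with exact conditional 95% intervals, and shares used Clopper-Pearson intervals. Deeper pools and commoner genes give narrower intervals. With 1 sample per condition there was no test. The named genes were the 15 highest and 10 lowest against other Epcam cells (100 CPM or more in the higher group of both pools), the 8 highest and 8 lowest between pools, and members of gene lists. Mitochondrial, ribosomal protein and predicted genes were left out. The members, lists, subset genes and motifs were chosen with earlier results of these data known. Alternatives changed the cell limits, rule genes, weighting, depth, free RNA and count filter. The scripts ran in Python 3.11.15 (pandas 2.3.3, scipy 1.17.1, numpy 2.4.6, matplotlib 3.10.9).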

Additional observations from a re-analysis of the deposited data

Results flagged for a closer look

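For 4 genes the secretory cells lay at least 2-fold above the other Epcam cells in one pool and at least 2-fold below in the other. These differences between pools were not tested. Ccl6, a chemokine of myeloid cells, had a log2 ratio of -1.98 in FTOC and 1.33 in ORFTOC, with 1 UMI in FTOC secretory cells and 99.2% of its 261 ORFTOC UMIs in 5 cells. Id1 had -1.05 and 1.26, and was found in 21 FTOC and 264 ORFTOC secretory cells, so the opposite directions were spread over many cells. The keratin Krt15 had 1.06 and -2.12, from 4 FTOC and 11 ORFTOC cells. Tff1 had 10.32 and -1.10. As the FTOC comparison cells had 0 Tff1 UMIs, the FTOC value is a lower bound, at least 1275-fold, and its 307 UMIs lay in 4 cells.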

How the results depend on the processing

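No paired analysis was possible because each condition was 1 pool. Of 164 recomputed counts and shares under 22 alternatives, 132 stayed close and 32 moved. Without Bpifa1 in the rule 319 cells were chosen. The FTOC share of Epcam cells was then 5.67%, and it was 10.9% at a 0.5% limit, 5.67% at 2%, 10.1% at 90% hashtag purity and 6.68% without Wfdc2. The ORFTOC share was 13.8% without Bpifa1, 26.8% at 0.5%, 19.6% at 2%, 26.5% without cells with 2 Ptprc or Pdgfra UMIs and 25.9% without cells with a T cell receptor contig. It was 20.6% with shallow cells no longer counted as secretory but kept in the total. ORFTOC kept the larger share in each. Bpifa1 led 51.2% of FTOC cells at 0.5%, 79.1% at 2%, 50.7% without Bpifa1 in the rule and 77.2% without Wfdc2, and 73.7%, 87.4% and 71.0% of ORFTOC cells under the first 3 of these, 87.4% without Lcn2 and 85.1% without Gp2.

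Genes higher than in other Epcam cells numbered 163 with cells thinned to 3000 UMIs, 761 with 3 expected UMIs and 199 with 30, and genes lower 341 thinned and 414 with 30. Between pools the counts were 200, 595 and 136 higher in ORFTOC and 73, 485 and 64 lower. Thinning and the filters change how many genes are compared. Of 1614 recomputed single-gene values 1108 stayed within the counting interval of the main value and 502 moved outside it. The other 4 reversed, all ORFTOC over FTOC. Without the 5 highest FTOC cells, an alternative chosen after the data were seen, Tff1 was 1.41, Iapp 3.51 and Klk1 2.05 on the log2 scale, and Klk1 was 1.83 at the 2% limit. The values without the 5 cells rest on the floor of 3 UMIs, as few or no FTOC UMIs of these genes were left. Under every alternative 74 of 78 single-gene results kept their direction. They include Spink1, whose value without the 5 cells came from the floor alone. The results that did not were those of Tff1, Iapp, Klk1 and Gp2. The Gp2 value, ORFTOC over FTOC, was near 0 at -0.11 and ranged from -0.24 to 0.28. The free RNA subtracted was scaled by thymocyte markers. It was 4.61% and 4.06% of the UMIs of FTOC and ORFTOC secretory cells and 22.4% and 29.7% of the others. RNA of thymocytes caught in the same droplet counts as free RNA in this scaling, so these are not measured amounts of free RNA.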
